A study of Mus musculus with 8 samples.

Results

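Exonic starts in noncoding transcripts are CAGE-seq tag clusters that lie inside an exon of a transcript with no coding sequence, away from any annotated start. A tag cluster is a run of neighbouring transcription start sites (TSSs) on 1 strand, and its dominant TSS is the base with the most 5' ends. A cluster was counted when its dominant TSS was more than 500 bp from every transcript start on its strand, outside the coding sequence and untranslated regions (UTRs) of that strand, and inside an exon of a noncoding transcript in GENCODE M21, with genes of a pseudogene type left out. In E14, 354 of 32857 clusters met the rule (1.08%, 95% Wilson interval 0.971 to 1.19), 354 of 33005 did in A1 (1.07%) and 352 of 32870 in C7 (1.07%). They made up 8.31% of the 4260 exonic clusters of E14, 8.21% of 4311 in A1 and 8.15% of 4321 in C7. Clusters of the lines that shared at least 1 base of a strand were joined, and those in noncoding exons formed 361 of 33324 loci.

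Noncoding transcripts come from more than 1 kind of gene. Long intergenic noncoding RNAs (lincRNAs) and antisense RNAs have their own promoters and many stay in the nucleus, where some act on chromatin or on splicing. Protein-coding genes also give rise to noncoding transcripts, most often ones in which an intron has been kept, and these tend to be held in the nucleus or degraded. CAGE captures the 7-methylguanosine cap, so it reads the 5' ends of RNA made by RNA polymerase II, and it can also capture caps added to cut or processed RNA.

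The libraries were made from nuclear RNA of mouse embryonic stem cells, 3 from wild-type E14, 2 from clone A1 and 3 from clone C7. A1 and C7 are double knockout (DKO) clones that lack Pwwp2a and Pwwp2b, paralogous genes whose proteins read the histone mark H3K36me3 in gene bodies, and each DKO line is a single clone. The replicates of a line were merged by the authors before clusters were called, so each line gave 1 set of clusters and no test between lines was possible. The score of each of the 98732 clusters was 0, so positions and widths were compared, and levels were not. Intervals given for shares cover counting error only, and clusters in 1 host gene share its transcript. Pwwp2a had 1 promoter cluster in each line and Pwwp2b had 0 in each, so these positions do not check the genotypes. The pluripotency genes Pou5f1, Nanog, Esrrb and Zfp42 had 6, 1, 3 and 4 promoter clusters in E14, while of 3 lineage factors Gata6 (endoderm) and T (mesoderm) had 0 in every line and Sox17 (endoderm) had 1 in every line.

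The clusters were divided into 2 kinds by the bases at -1 and +1 of the dominant TSS, and the sequences below show both. Each runs 5' to 3' along the transcript from 15 bases before the dominant TSS to 14 bases after it, read from GENCODE M21 transcript sequences on mm10, and the capitals mark the bases at -1 and +1. The first set holds the widest E14 cluster of 5 host genes with many clusters. At their first capital all 5 have G, and none has the pyrimidine-purine step, C or T followed by A or G, at which RNA polymerase II usually starts.
Malat1, chr19:5801107-5801136, minus strand: tgaagctagctggcGGcttggcttgtcaac
Kcnq1ot1, chr7:143242788-143242817, minus strand: cattaaaaactcagGAtagggttcacaaga
Meg3, chr12:109560814-109560843, plus strand: aataggaagaggtgGGaaagagttagatga
Tsix, chrX:103482716-103482745, plus strand: catggccccgatggGCtaaggagaagaaaa
Ogt, chrX:101653465-101653494, plus strand: agctttagacatcgGTttaggctgagacgt
The second set was chosen after the values were seen, to show the other kind. It holds the widest E14 cluster with a pyrimidine-purine step among the antisense, processed transcript, TEC and lincRNA genes, where TEC is the GENCODE type for loci that still await experimental proof. Of the 164 clusters in protein-coding hosts 21 also had the step, and none of them is shown.
Gm29361, antisense gene, chr12:83632016-83632045, minus strand: ttgaatcttatgacTGtgcgacgccatctt
2810002D19Rik, processed transcript gene, chr2:94406730-94406759, plus strand: ggggaggtcgcctcTGgaactggaggagga
C530043K16Rik, TEC gene, chr5:66595039-66595068, minus strand: gtgggcggggcggcTActctgaatgcagag
Gm26829, lincRNA gene, chr11:22610325-22610354, minus strand: ctggctccaggcttCActactgagcacaga

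The 354 clusters of E14 lay in 231 host genes, those of A1 in 229 and those of C7 in 228. Where a dominant TSS lay in exons of several genes, the gene that was not protein-coding was taken as host. A single cluster was found in 173 of the E14 hosts (74.9%), 2 clusters in 37 and 3 or more in 21, and the 5 leading hosts held 50 clusters (14.1%). Protein-coding genes were the largest class, with 164 clusters in 120 genes (46.3%, interval 41.2 to 51.5). LincRNA genes held 80 clusters in 37 genes, antisense genes 52 in 30, genes of the type processed transcript 24 in 17 and TEC genes 23 in 20, which left 11 clusters in 7 genes of other types. The counts in the clones differed from those of E14 by at most 3 clusters in any class.

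**Figure D1:**
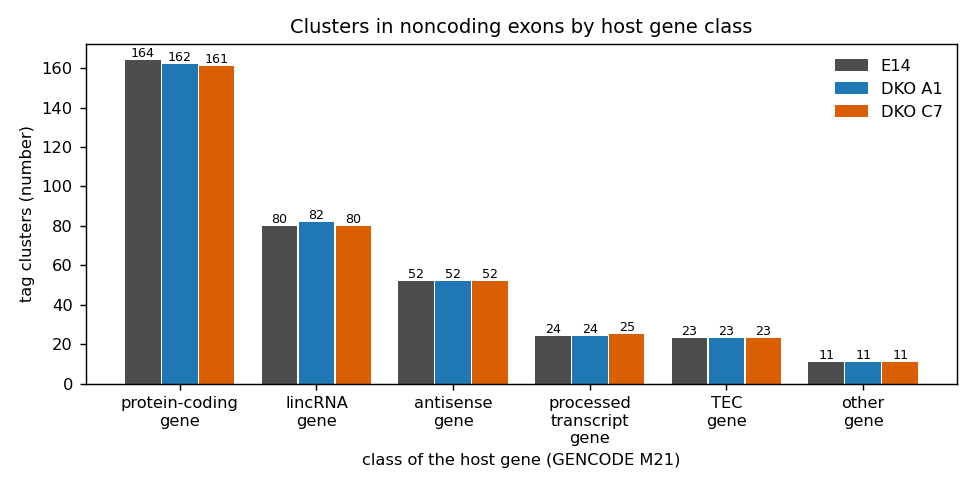
Number of tag clusters in noncoding exons (y axis) by the class of the host gene (x axis), with 1 bar for each line (E14, DKO A1 and DKO C7) and the number printed above it. The 3 bars of a class were close to equal, from 161 to 164 in protein-coding genes to 11 in each line in genes of other types.

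Within protein-coding genes, 130 of the 164 E14 clusters lay in an exon of a transcript annotated as a retained intron and 38 in an exon of a processed transcript, the GENCODE type for a spliced transcript with no reading frame (a cluster can lie in both). Since exonic coding sequence and UTRs had been left out, 159 of the 164 (97.0%) also lay within an intron of a coding transcript of the same strand. In lincRNA genes this was so for 2 of 80 (2.5%) and in antisense genes for 3 of 52 (5.77%). Across all hosts 180 of 354 (50.8%) lay in such an intron.

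Most of the protein-coding hosts had a promoter cluster, that is, a cluster within 500 bp of a start of the same gene. In E14, 113 of 120 protein-coding hosts did (94.2%), beside 50.4% of all protein-coding genes. Of the lincRNA hosts 19 of 37 did (51.4%, all lincRNA genes 5.35%), and of the processed transcript hosts 12 of 17 (70.6%, all such genes 21%). Among antisense hosts the number was 6 of 30 (20.0%, all antisense genes 6.52%), and among TEC hosts 4 of 20 (20.0%, all TEC genes 2.27%). So for most antisense and TEC hosts the cluster in the exon was present without one at an annotated start of the gene.

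The amount of exon in which a cluster could have been counted differed between classes. Protein-coding genes had 14.5 Mb of noncoding exon that met the rule, which gave 11.3 clusters per Mb. LincRNA genes had 6.89 Mb (11.6 per Mb), antisense genes 3.4 Mb (15.3 per Mb), processed transcript genes 1.51 Mb (15.9 per Mb) and TEC genes 5.15 Mb (4.46 per Mb). When only genes with a promoter cluster in E14 were taken, protein-coding genes had 14.7 clusters per Mb, TEC genes 33.9, processed transcript genes 56.6, antisense genes 61.2 and lincRNA genes 106.0 per Mb. The lincRNA value came from 58 clusters in 0.548 Mb, and without Malat1, Meg3 and the hosts at or beside rRNA genes it was 43.6 per Mb (23 clusters in 0.527 Mb). The antisense value came from 23 clusters in 0.376 Mb, of which 11 were in Kcnq1ot1 and 7 in Tsix. The TEC value came from 4 clusters in 0.118 Mb.

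Clusters in noncoding exons were narrow. Interquantile width, the span between the 0.1 and 0.9 quantiles of the 5' ends in a cluster, had a median of 4 bp in each line (E14 quartiles 2 to 16.8 bp). It was 2 bp in 131 of the 354 E14 clusters (37%) and 10 bp or less in 66.1%. In E14 the median was 20 bp at annotated promoters, 4 bp in coding sequence, 3 bp in introns and 2 bp in UTRs. Widths differed by host. In protein-coding hosts the median was 2 bp (quartiles 2 to 9) and 53.0% of clusters were exactly 2 bp wide, whereas it was 14.5 bp in lincRNA hosts (3 to 34.5) and 9 bp in antisense hosts (3 to 19). These medians depended on a few hosts. Without Malat1, Meg3 and the hosts at or beside rRNA genes (called rRNA hosts from here on) the lincRNA median was 6 bp. Without Kcnq1ot1 and Tsix the antisense median was 14 bp, which turns their order. These splits were made after the values were seen.

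**Figure D2:**
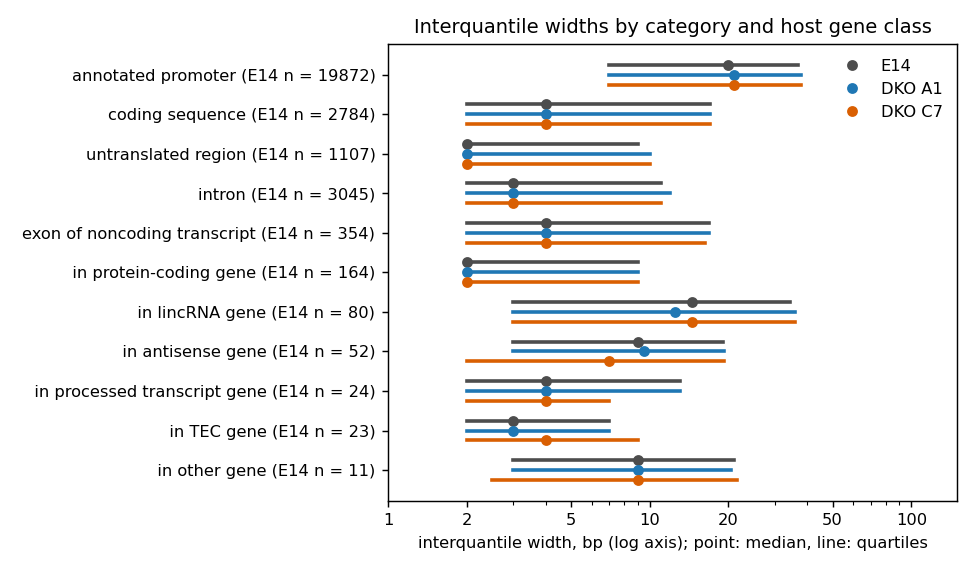
Interquantile width in bp (log axis) by genomic category and, for clusters in noncoding exons, by host gene class (y axis, with the number of E14 clusters). Points are medians and lines run between the quartiles, for E14, DKO A1 and DKO C7. The E14 median was 2 bp in protein-coding hosts and 14.5 bp in lincRNA hosts, where it was 6 bp without Malat1, Meg3 and the rRNA hosts.

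The widest clusters lay at or beside ribosomal RNA genes and in Malat1. The 5 widest in E14 were at Gm26917 (881 bp), mt-Rnr2 (496 bp), Gm42418 (363 bp), Malat1 (335 bp) and Gm42418 again (275 bp). mt-Rnr2 encodes the large ribosomal RNA of mitochondria. Gm26917 and Gm42418 lie on the plus strand of chromosome 17, within 10 kb of the annotated rRNA gene CT010467.1 on the minus strand. Gm42418 (39846958 to 39848788) lies wholly inside the span of CT010467.1 (39846353 to 39848827), and Gm26917 ends just outside it, at 39846341. AY036118, on the minus strand, also lies inside that span. The hosts mt-Rnr2, Gm26917, Gm42418, CT010467.1 and AY036118 together held 13 E14 clusters. From first to last base, these 13 covered 3470 of the 8644 bp of all E14 clusters in noncoding exons (40.1%). Without the 13, 341 clusters remained in E14 and the median width was still 4 bp.

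Malat1, a nuclear RNA that associates with speckles of splicing factors, held more clusters than any other host in each line, with 19 clusters in both E14 and C7 and 20 in A1. The gene spans 6983 bp on the minus strand of chromosome 19 (5795690 to 5802672). Its E14 clusters lay from 670 to 4608 bp from the gene's 5' end and covered 1757 bp from first to last base of each. Widths ran from 2 to 335 bp with a median of 22 bp, and 0 of the 19 had a pyrimidine-purine step. The dominant TSS was the same base in all 3 lines at 13 of 20 loci. At 1 further locus, with an interquantile width of 268 bp in each line, the dominant TSS was at 5799376 in E14 and C7, within 500 bp of an annotated Malat1 start, and at 5799643 in A1, 267 bp upstream, which is why A1 counts 1 cluster more. Neat1, the neighbouring RNA that builds paraspeckles, held 2 clusters in each line, 32 and 20 bp wide in E14.

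Kcnq1ot1, the imprinted antisense RNA of the Kcnq1 domain, held 11 clusters in each line on the minus strand of chromosome 7 (143203458 to 143296549). They were spread over a long stretch, from 9278 to 72264 bp from the 5' end, and covered 76 bp in all. Their median width in E14 was 2 bp and 1 of 11 had a pyrimidine-purine step. Meg3, an imprinted RNA made from the maternal copy, held 7 clusters in each line, all between 18928 and 21006 bp from its 5' end, from 2 to 16 bp wide in E14, with 0 of 7 at such a step. Tsix, the antisense partner of Xist, also held 7 in each line. Of these, 1 lay 18212 bp from the 5' end and the other 6 lay between 50509 and 51263 bp, where Tsix runs through the Xist locus on the opposite strand, and 1 of 7 had the step.

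**Figure D3:**
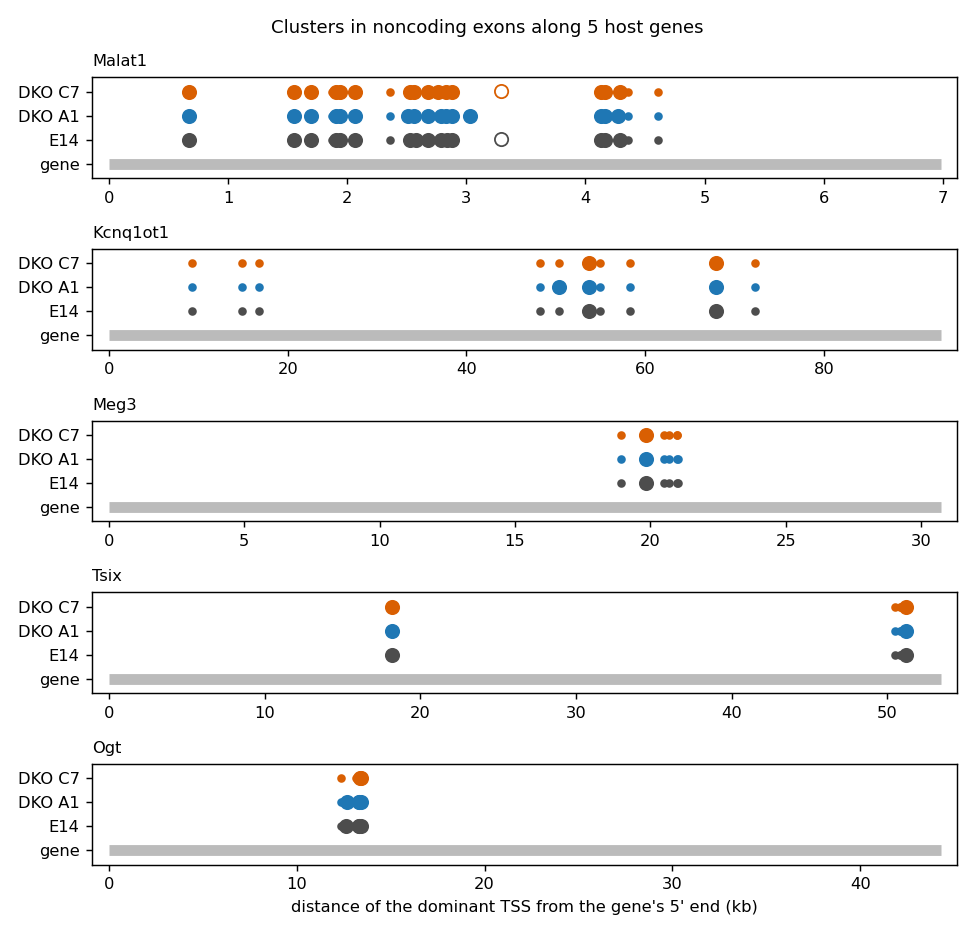
Position of the dominant TSS along 5 host genes, as distance from the gene's 5' end in kb, with 1 row for each line and the gene drawn as a grey bar. Large points are clusters wider than 10 bp, small points are narrower ones, and open points are loci whose dominant TSS lay outside the rule in that line. The lines had nearly the same positions. The missing C7 cluster of Ogt was the difference in presence, and 1 Malat1 locus present in all lines met the rule in A1 only.

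Ogt, which encodes the enzyme that adds N-acetylglucosamine to nuclear and cytosolic proteins, was the protein-coding host with the largest number of clusters beside Gm38393. It held 6 in E14, 6 in A1 and 5 in C7, all in exon 4 of 1 retained-intron transcript on chromosome X, between 12334 and 13420 bp from the gene's 5' end in E14. The cluster absent from C7, at 101652708 to 101652723, was 16 bp wide in E14 and A1, and its dominant TSS moved from 101652708 in E14 to 101652723 in A1. Gm38393, annotated as protein-coding on chromosome 7, held 6 clusters in each line, 5 of them between 27197 and 27609 bp from its 5' end in E14. Of the remaining leading hosts, 1700020I14Rik, Cct6a and Platr16 had 4 clusters each in every line. Cct6a, a chaperonin subunit gene that GENCODE M21 types as a processed transcript gene, had the same dominant TSS in all lines at 4 of 4 loci, with widths of 2 or 3 bp. At Platr16, a pluripotency-associated RNA, 2 of 4 clusters had a pyrimidine-purine step. AY036118 had 4 clusters from 8 to 47 bp wide in E14.

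Genes for RNA processing were among the hosts. Of 67 spliceosome, hnRNP and SR protein genes, 18 held 31 clusters in E14, 17 held 31 in A1 and 17 held 30 in C7, and 66 of the 67 had a promoter cluster in each line. Their density in E14 was 255.0 clusters per Mb of countable exon (31 clusters in 0.122 Mb), beside 14.7 per Mb for all protein-coding genes with a promoter cluster. This list and those below were chosen with earlier results of these data known, so their densities are descriptive and test nothing. The genes set side by side were not matched for expression. Srsf3 and Tra2a, genes for SR-type splicing factors, had 4 clusters each. Srsf5, also an SR protein gene, had 3, which were 17, 34 and 14 bp wide in E14, whereas the 4 of Srsf3 were 2, 2, 2 and 3 bp wide. Hnrnpa2b1, for an RNA-binding protein of the hnRNP family, had 2, of 3 and 2 bp. At all 4 genes these clusters lay in retained-intron transcripts. Of 21 translation and ribosomal protein genes, Eif4a2 (3 clusters) and Eif5 (2 clusters) were the only hosts in each line, and all 21 had a promoter cluster. The list has 11616 bp of countable exon, so its 5 clusters amount to 430.0 per Mb.

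Of 14 nuclear and chromatin RNAs, Malat1, Tsix and Neat1 were hosts, with 28 clusters in E14 (312.0 per Mb), 19 of them in Malat1, and 12 of the 14 had a promoter cluster. Of 11 imprinted RNAs, Kcnq1ot1 and Meg3 were hosts, with 18 clusters (125.0 per Mb). Of 33 pluripotency-associated RNAs, Platr16, Lncenc1 and Platr4 were hosts, with 8 clusters (203.0 per Mb), and 19 had a promoter cluster. None of the 17 annotated snoRNA host genes held a cluster in any line, and 16 had a promoter cluster in E14. None of the 10 microRNA host genes, which have 11 gene entries in the annotation, held one. The rule leaves out 500 bp around every start of a small RNA as well, so 25566 bp of snoRNA host exon and 35979 bp of microRNA host exon could be counted.

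In E14, 139 lay in the only exon of an unspliced transcript, 153 in the last exon, 41 in an internal exon and 21 in the first exon of a spliced one. The rule keeps clusters away from starts, and along the spliced transcript the median position was 57.1% of its length (quartiles 36.3 to 77.1), 64.5% in protein-coding hosts and 45.5% in lincRNA hosts. The nearest annotated start on the strand was a median of 1528 bp away (quartiles 807 to 3726). Just inside the limit lay AC122861.4 at 508 bp and C530043K16Rik at 517 bp, with 31 clusters up to 600 bp. Just outside it lay Eif4a2 at 498 bp and Triml2 at 496 bp, with 25 clusters in noncoding exons more than 400 bp away.

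The share of clusters with a pyrimidine-purine step was lowest in protein-coding hosts. Over all 353 E14 clusters with sequence, 97 had it at the dominant TSS (27.5%, interval 23.1 to 32.4), beside 20.6% of the other positions in the surrounding 100 bases. A1 had it at 27.2% and C7 at 26.8%. In E14 it was 82.2% at the 8778 promoter clusters that lay in RefSeq promoter windows (GRCm38.p6), 8.63% in coding sequence and 10.0% in UTRs. Within noncoding exons it was 12.8% in protein-coding hosts (8.53 to 18.8), 28.8% in lincRNA hosts (20.0 to 39.5) and 59.6% in antisense hosts (46.1 to 71.8). It was 39.1% in TEC hosts (22.2 to 59.2), 43.5% in processed transcript hosts (25.6 to 63.2) and 27.3% in hosts of other types (9.75 to 56.6), and these intervals overlap those of lincRNA and antisense hosts. In splits made after the values were seen, the share in antisense hosts without Kcnq1ot1 and Tsix was 85.3% (29 of 34, 69.9 to 93.6), and in lincRNA hosts without Malat1, Meg3 and the rRNA hosts it was 46.7% (21 of 45, 32.9 to 60.9).

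Many clusters carried G before the dominant TSS. G was at -1 in 52.6%, at -2 in 66.8% and at -3 in 55.1% of the 352 E14 clusters with 5 bases on each side, and T was at +2 in 50.3%. In coding sequence G stood at -1 in 76.6% and at -2 in 83.1%. G at both -2 and -1, which excludes a pyrimidine-purine step by definition, was found at 163 of 353 clusters (46.2%, 41.0 to 51.4), or 63.7% of the 256 without the step. Its share was 57.9% in protein-coding hosts, 38.8% in lincRNA hosts and 32.7% in antisense hosts. With the same hosts left out as above it was 26.7% in lincRNA hosts (16 to 41.0) and 5.88% in antisense hosts (1.63 to 19.1). Whether the G that reverse transcription can add opposite the cap was trimmed is not given in the sources used here, and its part in these positions was not tested.

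**Figure D4:**
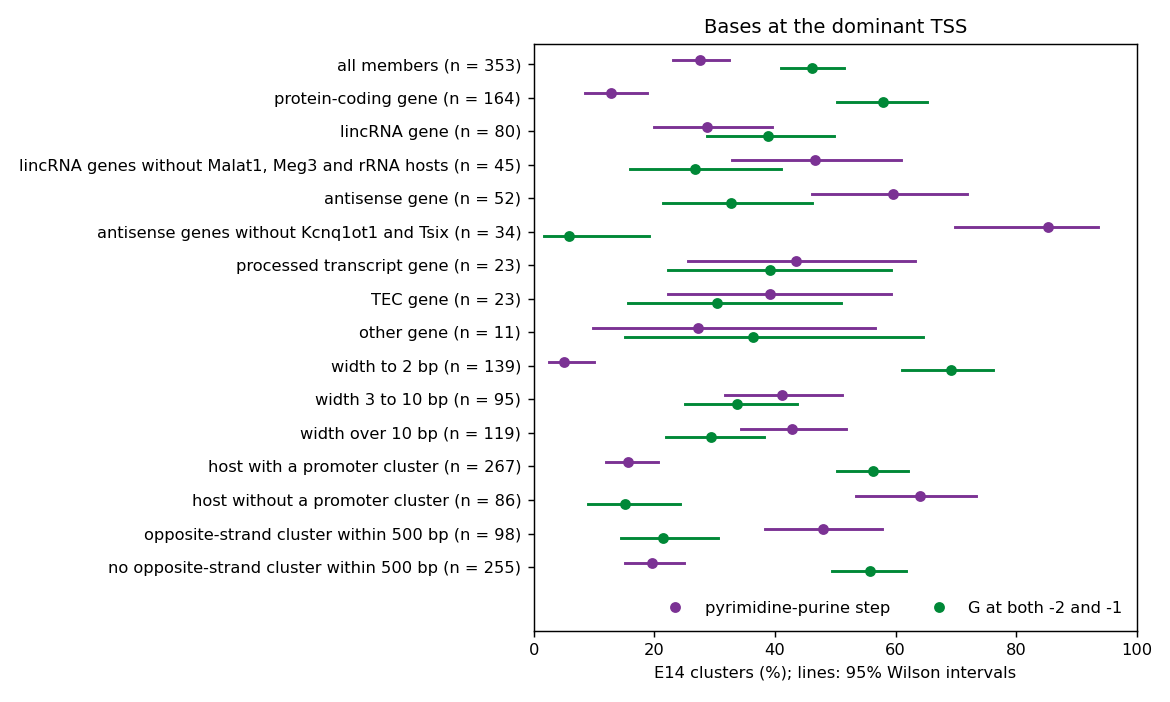
Share of E14 clusters in noncoding exons (x axis, %) with a pyrimidine-purine step at the dominant TSS (purple) and with G at both -2 and -1 (green), by host class, width, host promoter and opposite-strand cluster (y axis, with n). Lines are 95% Wilson intervals. Purple exceeded green most in antisense genes without Kcnq1ot1 and Tsix and in hosts without a promoter cluster, and green exceeded purple most in clusters up to 2 bp wide.

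In splits made after the values were seen, the step moved with width, with the promoter of the host and with clusters on the other strand. The rule used none of these beyond the distance to a start. These features overlap each other and the host class, and width and opposite-strand clusters were not split within a class. Protein-coding hosts had a median width of 2 bp and an opposite-strand cluster at 8.54%. In antisense hosts without Kcnq1ot1 and Tsix these were 14 bp and 64.7%. Of 139 E14 clusters up to 2 bp wide, 7 had the step (5.04%, 2.46 to 10.0) and 96 had G at -2 and -1 (69.1%). Of 119 clusters wider than 10 bp, 51 had the step (42.9%, 34.3 to 51.8) and 35 the 2 Gs (29.4%). In hosts with no promoter cluster 55 of 86 clusters had the step (64.0%, 53.4 to 73.3), and in hosts with one 42 of 267 (15.7%, 11.9 to 20.6). The same order held within noncoding hosts, at 60.8% of 79 clusters without and 25.5% of 110 with a promoter cluster. A few hosts weigh on the 110, which include 19 clusters of Malat1, 11 of Kcnq1ot1, 7 of Meg3 and 7 of Tsix. Of these 0, 1, 0 and 1 had the step. The 110 also include the 13 of the rRNA hosts, and the share without all these hosts is not given here. Up to 1000 bp from an annotated start the share was 40.5% of 116, and beyond 1000 bp it was 21.1% of 237. In A1 the share was 62.8% in hosts without and 15.7% in hosts with a promoter cluster, so the order was that of E14.

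Clusters on the opposite strand were close to many of them. In E14, 98 of 354 (27.7%, 23.3 to 32.6) had an opposite-strand dominant TSS within 500 bp, beside 24.7% at annotated promoters, 23.4% in coding sequence, 8.34% in introns and 6.78% in UTRs. Of these 98, 12 were in the rRNA hosts and 13 in Malat1, and without both groups the number was 73 of 322 (22.7%). With an opposite-strand cluster nearby the step was found at 48.0% (38.3 to 57.7), and without one at 19.6% (15.2 to 24.9). In antisense hosts 24 of 52 (46.2%) had an opposite-strand cluster, and in those other than Kcnq1ot1 and Tsix 22 of 34 did. In 18 of the 22 it lay on the 5' side, so that the pair pointed away from each other, in 21 it was at an annotated promoter, and the median distance was 174 bp. In protein-coding hosts 14 of 164 (8.54%) had one, on the 3' side in 11.

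Base composition followed the same division. In the 100 bases around the dominant TSS, which could be read within 1 exon for 324 of 354 E14 clusters (91.5%), median GC content was 45% (quartiles 36 to 56). It was 39% in protein-coding hosts, 48% in lincRNA hosts and 58% in both antisense and TEC hosts, and 42% around clusters in UTRs. Around the clusters with a pyrimidine-purine step it was 59% (52 to 65), with no CpG in 9.2% of 87 windows, and around the others 40% (33 to 48), with no CpG in 45.1% of 237. The GC box, searched as GGGCGG on both strands, was present in 20.7% of windows with the step (13.5 to 30.4) and 3.8% of the others (2.01 to 7.06), beside 21.7% of all 32851 RefSeq promoter windows of the same length and 45.6% of the 8286 that held an E14 cluster. The ETS core CCGGAAG was in 4.6% of the former and in 0 of the 237 others, an interval of up to 1.6%, beside 5.21% of all promoter windows and 13.9% of those with a cluster. The CCAAT box (CCAAT) was in 8.05% and 11% (all promoter windows 13.6%), with overlapping intervals. The TATA box (TATAAA) was in 3.45% (1.18 to 9.65) and 10.1% (6.9 to 14.6), beside 4.94% of all promoter windows. By host, it was in 25 of the 154 windows of protein-coding hosts (16.2%). Around E14 clusters in UTRs the TATA box was in 8.1% of windows and the GC box in 5.21%. In A1 the TATA box was in 3.49% of windows with the step and 10.5% of the others. These intervals overlapped, as did those of E14. In C7 the TATA box was in 1.19% (0.21 to 6.44) and 10.9% (7.56 to 15.5), where the intervals did not overlap. The C7 share with the step came from 1 of 84 windows, beside 3 of 87 in E14 and 3 of 86 in A1. Windows in coding sequence could be read for 57.7% of clusters and those of processed transcript hosts for 62.5%, so that check is void for them and no value is given.

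Nearly every locus was present in wild-type and DKO cells alike. Of the 361 loci, 354 were found in all 3 lines (98.1%, 96.1 to 99.1), beside 97.4% of all 33324 loci. A cluster in both clones and not in E14 was seen at 1 locus, beside 0.444% of all loci. It lies in a retained-intron transcript of Snapc3, which encodes a subunit of the complex that activates small nuclear RNA genes, on the plus strand of chromosome 4 (83464987 to 83464991), and was 1 bp wide in A1 and 5 bp wide in C7. Here the transcript reads as follows.
Snapc3, chr4:83464972-83465001, plus strand: taacccctggtttaGCtaaatttttccgtt
The next Snapc3 cluster begins at 83465018, was 18 bp wide in all 3 lines and had its dominant TSS at 83465018 in each, so the added locus sits beside one that E14 also had.

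The reverse pattern, a cluster in E14 and in neither clone, was also seen at 1 locus (background 0.228%). It is a 1 bp cluster at 34209325 on the minus strand of chromosome 7, in a retained-intron transcript of Gpi1, which encodes the glycolytic enzyme glucose-6-phosphate isomerase. The 3 loci of A1 only lay in A930038B10Rik, Cenpa and Clcn3 (background 0.651%), and each was 1 bp wide. The locus of C7 only, in 1700023H06Rik, was 1 bp wide as well (background 0.321%), and the locus of E14 and A1 was that of Ogt (background 0.51%). Of the 7 loci not shared by all lines, 5 were thus no more than 1 bp wide in every line that had them.

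Where a locus was shared, the dominant TSS stayed on the same base in all 3 lines at 225 of 354 loci (63.6%, 58.4 to 68.4), beside 66.3% of all loci. A1 differed from E14 at 89 loci (25.1%, background 23.7%), with the base on the upstream side at 52 (14.7%, background 11.7%). C7 differed at 85 (24.0%, background 21.1%), on the upstream side at 47 (13.3%, background 10.1%). Both comparisons use the same E14 clusters. Moves were short, with a median of 3 bp in A1 and 2 bp in C7, and 61.8% and 63.5% of them were of 1 to 5 bp. Those over 50 bp were 2 in A1, at Malat1 (267 bp) and Gm42418 (254 bp), and 1 in C7, at the same Gm42418 locus (254 bp), each upstream.

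**Figure D5:**
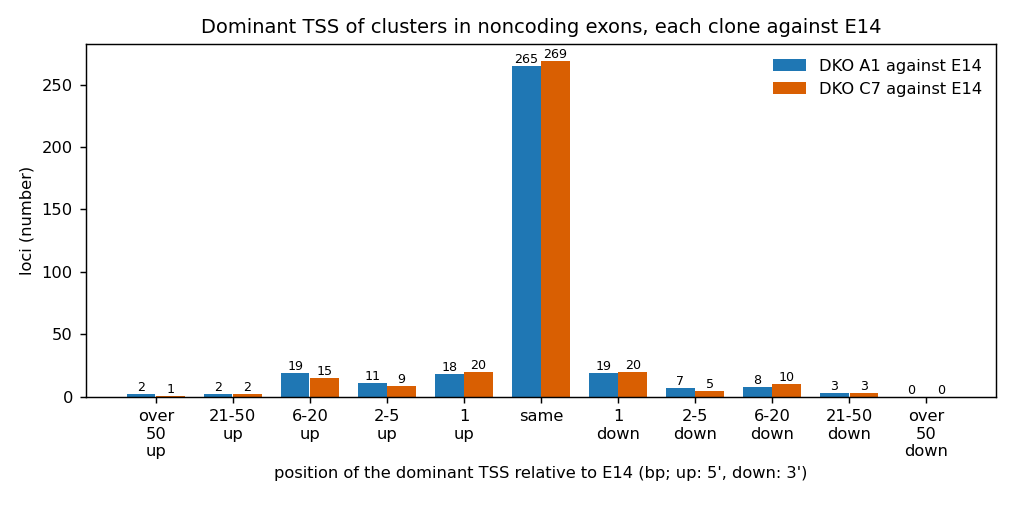
Number of loci in noncoding exons (y axis) by the position of the dominant TSS in each clone relative to E14 (x axis, bp, 5' side to the left), for the 354 loci shared by all lines. Both clones have their tallest bar at the same base as E14, and 89 loci of A1 and 85 of C7 lie to either side.

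Interquantile width was identical in all 3 lines at 266 of 354 loci (75.1%, 70.4 to 79.4), beside 59.5% of all loci. The share was 76.1% in coding sequence, 77% in UTRs, 78.6% in introns and 49.9% at annotated promoters. The region was wider than in E14 at 35 loci in A1 (9.89%, background 20.4%) and narrower at 25 (7.06%, background 10.5%). In C7 it was wider at 32 (9.04%, background 18.6%) and narrower at 32 (9.04%, background 10.6%). In E14 clusters with a pyrimidine-purine step 66.0% of 97 shared loci kept the dominant TSS (56.1 to 74.6), and in the others 63.0% of 254 (56.9 to 68.7), and these intervals overlap. Width was the same in 62.9% (53.0 to 71.8) and 79.9% (74.6 to 84.4). Clusters with the step were also wider in E14, with a median of 12 bp against 2 bp. By E14 width alone, it was the same at 87.0% of loci up to 2 bp wide and 56.8% of those over 10 bp. Step and width were not separated here.

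At 7 loci a move of the dominant TSS changed the category between lines, 3 times between noncoding exon and coding sequence, 3 times between noncoding exon and intron, and at the Malat1 locus described above. The same count over all loci is not given here, so these 7 have no background. The genes below are named because of their change. At Pnn, which encodes a splicing-associated protein, the dominant TSS lay at 59070141 in E14, the base before a coding exon, and at 59070142, in coding sequence, in both clones. At Vps50, a vesicle trafficking gene, it lay at 3520279 in E14 and at 3520273, in coding sequence, in both clones. At Top2a, Rbm39, Stmn2 and Tmem156 the category differed in A1 and was the same in E14 and C7. The numbers of clusters in noncoding exons of Pnn and Vps50 in the clones are therefore 0 although the loci were present.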

How the data were processed

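Nuclear RNA CAGE-seq libraries were made for E14 (3), DKO A1 (2) and DKO C7 (3). Per the labels, reads were mapped to mm10 with STAR 2.4.2a and handled with SAMtools 1.3 and bedtools 2.17.0. The authors kept unique alignments, pooled the libraries of a line and used CAGEr to call clusters. The deposited file holds 3 tracks of cluster positions, with the dominant TSS and the interquantile region (quantiles 0.1 to 0.9) of each cluster, and a deposited score that is 0 throughout. It holds no counts, so depth per line could not be read from it. In 14 clusters of the 98732 the dominant TSS lay outside the interquantile region.

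Clusters were classified with Python 3.11.15 and NumPy 2.4.6 against GENCODE M21, with a window of 500 bp around starts, and joined between lines by overlap of at least 1 bp on the strand. Shares have 95% Wilson intervals (SciPy 1.17.1). The functions were tested on simulated positions, where 300 of 300 categories matched a slow search of the same annotation. Of simulated patterns of presence 500 of 500 were recovered. Those loci lay far apart and overlapped between lines by design, so the joining of very narrow or closely spaced clusters was not tested. Figures were drawn with Matplotlib 3.10.9. Bases were read from GENCODE transcripts within 1 exon, and promoter windows (250 bases before to 50 after a start) from RefSeq.

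The hosts named are the 10 with the most E14 clusters, those of loci in both clones and not E14 or in E14 only, the 5 widest clusters and up to 4 examples from each gene list. Other genes were chosen after their values were seen. The clusters and the gene lists were chosen with earlier results of these data known. Alternatives were the window, the position used for a cluster, pseudogenes kept, a minimum width, the transcripts taken, the overlap rule and each clone alone. Leaving out the rRNA hosts was added after seeing the data, as were the splits of the clusters by step, width, host promoter, opposite-strand cluster and leading host.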

Additional observations from a re-analysis of the deposited data

How the results depend on the processing

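No paired analysis was possible because the replicates of each line were merged before clusters were called, and no test was made. With 1 set of clusters for each line, differences between lines have no replicate check, and the lines may differ in depth, which was not analysed here. Of the 145 values under an alternative, 97 stayed within the limits set for them and 48 did not, and the cause was not tested beyond what each alternative adds or leaves out. The limits were wide, so the 97 are no measure of stability. With a window of 1000 bp, 238 clusters in E14 and 236 in A1, against 354 in each, counted as within them. In C7, 234 against 352 did not.

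With a window of 100 bp the clusters of E14, A1 and C7 (in that order throughout) numbered 613, 615 and 614, of which 36.1%, 35.3% and 35.7% had a pyrimidine-purine step. The median width was then 6 bp in each line, and 3 loci were in both clones and not in E14. With 1000 bp there were 238, 236 and 234 clusters, the share in protein-coding hosts was 52.1%, 51.3% and 51.3%, and the step was found at 21.1%, 20.0% and 21.5%. With a width of at least 3 bp there were 215, 218 and 212 clusters with medians of 13, 12 and 12 bp, 33.5%, 32.1% and 34.0% in protein-coding hosts, the step at 42.1%, 40.6% and 38.4%, 92.5% of loci in all 3 lines and 3 in both clones and not in E14. With genes that are not protein-coding only, 190, 192 and 191 clusters remained, with medians of 7.5, 8 and 7 bp and the step at 40.2%, 40.8% and 38.9%, and the loci in both clones and not in E14 and those of E14 only were each 0. Under a reciprocal overlap of 50% these were 2 and 2. When loci had to share the dominant TSS they were 40 and 47, and 46.1% of loci were in all 3 lines. Against A1 alone, 4 loci were absent from E14, and against C7 alone 2 were, with 2 of E14 only. No counts over all loci are given for these alternatives, so the numbers of loci not shared have no background here. Without the rRNA hosts no value moved past its limit.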
